A study of Mus musculus with 8 samples.

Results

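The genes described here are those of 5 mouse chemokines of the CXC class: Pf4, Cxcl1, Cxcl2, Cxcl10 and Cxcl16. They were examined as places where peaks of the transcription factor IRF5 were called in macrophages. A peak was counted for a gene when the authors' annotation gave that gene as its nearest, or placed the peak in the gene's Promoter class. By this rule the 5 genes, of 21295 named in the lists, held 76 of the 105945 peaks of 4 libraries. No promoter peak of the 5 genes had another gene as its nearest.

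CUT&Tag with an antibody against IRF5 was run on wild-type macrophages grown from mouse bone marrow, which had received CpG or, as the control, PBS. In CUT&Tag an antibody directs a transposase to the DNA beside the target protein, and the fragments cut there are sequenced. Each condition had 2 anti-IRF5 libraries, named CpG 1, CpG 2, control 1 and control 2 below, and the 4 IgG libraries of the series were not analysed here. The cells were thawed from frozen stock before the assay. The labels give neither the dose and duration of CpG nor the sex and age of the mice, and nothing says that the libraries of a condition came from separate mice or cultures, so the p-values below measure only the spread between libraries.

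CpG here stands for DNA with unmethylated CpG sites, which is sensed by TLR9 in the endosome. TLR9 signals through MyD88, and IRF5 and NF-kB are both activated downstream of this adaptor. CXC chemokines are small secreted proteins that guide leukocytes. Cxcl1 and Cxcl2 attract neutrophils through the receptor Cxcr2 and are early genes of the macrophage response to microbial products, and Cxcl10 is induced by interferons and attracts activated T cells through Cxcr3. Pf4, also called platelet factor 4 or Cxcl4, is best known from the granules of platelets and is also expressed by macrophages. Cxcl16 is made as a membrane-bound protein that takes up oxidised lipoprotein and binds Cxcr6.

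The lists held 13553 peaks in CpG 1 and 25851 in CpG 2, against 29226 in control 1 and 37315 in control 2. Their peaks covered 3.33 and 11.5 Mb in the CpG libraries, against 12.4 and 19.1 Mb in the control libraries. Length of list therefore moved with condition, and its part in the differences below was not tested. The lists give no read totals, so depth is unknown. The background library of the peak calls also follows the condition, judged by the names of the lists, so that condition and background library cannot be told apart. Of 8 markers of macrophages 7 were named in the lists, and 3 and 6 of them had a promoter peak in CpG 1 and CpG 2, against 6 and 7 in control 1 and control 2. Those with one in all 4 libraries were Adgre1, which encodes F4/80, and Cd68. Of 9 markers of megakaryocytes and platelets 4 were named, and 1 and 3 had a promoter peak in the CpG libraries, against 2 and 1 in the control libraries. Pf4 was the only one of the 4 named with a promoter peak in all 4 libraries. The neutrophil markers gave 0 and 1 of 7 named in the CpG libraries, against 0 and 2 in the control libraries. None of the 3 named B cell markers had a promoter peak in any library. Among all named genes, 10.3% and 22.1% had a promoter peak in the CpG libraries, against 23.9% and 28.4% in the control libraries. A promoter peak in all 4 libraries was found for 5.41% of them.

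Pf4, Cxcl1, Cxcl2 and Cxcl10 lie on chromosome 5, and Cxcl16 lies on chromosome 11. In the coordinates of the files, for which the labels name no build, Pf4 (ENSMUSG00000029373) spans chr5:90920294-90921242 on the plus strand. Cxcl1 (ENSMUSG00000029380) follows at chr5:91039100-91040974, its start 119.0 kb beyond that of Pf4, and Cxcl2 (ENSMUSG00000058427) at chr5:91051730-91053797, both on the plus strand. Only 10.8 kb separate the end of Cxcl1 from the start of Cxcl2. Cxcl10 (ENSMUSG00000034855) stands apart from this cluster, 1.45 Mb beyond Cxcl2, at chr5:92494497-92496748 on the minus strand. The files place its promoter peaks in an intron of Art3 as well. Cxcl16 (ENSMUSG00000018920) spans chr11:70344809-70350810 on the minus strand.

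The 250 bases before the RefSeq start of 4 of the genes are shown because 7 of the 13 promoter peaks described below had their summit within 250 bases upstream of the start. They are taken from RefSeq in the build GRCm38.p6, which is not aligned here to the coordinates of the files. Cxcl2 is 2040 bp long in RefSeq and 2068 bp in the files, and Cxcl1 1877 and 1875 bp. Their RefSeq starts, used for the motifs, may therefore differ from the starts used for the summits. The windows are chr5:90772185-90772434 (Pf4), chr5:90890995-90891244 (Cxcl1), chr5:90903649-90903898 (Cxcl2), all on the plus strand, and chr5:92348890-92349139 (Cxcl10) on the minus strand. Each is written 5′ to 3′ along its gene, and capitals mark the motif matches named in the next paragraph.
Pf4: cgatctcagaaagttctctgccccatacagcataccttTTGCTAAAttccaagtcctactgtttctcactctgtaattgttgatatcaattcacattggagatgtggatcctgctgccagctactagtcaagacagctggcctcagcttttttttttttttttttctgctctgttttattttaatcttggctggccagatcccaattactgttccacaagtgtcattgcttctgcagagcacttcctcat
Cxcl1: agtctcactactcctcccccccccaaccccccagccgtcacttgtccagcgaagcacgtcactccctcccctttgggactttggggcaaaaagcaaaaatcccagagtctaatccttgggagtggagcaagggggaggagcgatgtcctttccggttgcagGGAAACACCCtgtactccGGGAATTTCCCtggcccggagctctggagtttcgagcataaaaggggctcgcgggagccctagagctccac
Cxcl2: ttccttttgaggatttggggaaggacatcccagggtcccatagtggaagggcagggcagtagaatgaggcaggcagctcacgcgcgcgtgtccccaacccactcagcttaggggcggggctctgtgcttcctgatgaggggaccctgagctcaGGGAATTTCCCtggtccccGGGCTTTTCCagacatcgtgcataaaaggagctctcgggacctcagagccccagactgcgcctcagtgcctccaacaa
Cxcl10: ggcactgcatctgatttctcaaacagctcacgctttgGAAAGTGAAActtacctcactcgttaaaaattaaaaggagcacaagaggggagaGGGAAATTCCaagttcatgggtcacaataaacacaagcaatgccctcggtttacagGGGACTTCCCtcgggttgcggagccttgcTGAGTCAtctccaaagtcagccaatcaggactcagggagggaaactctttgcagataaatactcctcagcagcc

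Motifs were searched on both strands of these windows and of 32851 windows in all, and a match describes letters, not a bound site. The NF-kB motif was found in the Cxcl1 and Cxcl2 windows and in 1.41% of all windows. In Cxcl1 its plus-strand match GGGAATTTCC ended 62 bases before the start, with a second match on the other strand ending 80 bases before it. In Cxcl2 the same letters ended 88 bases before the start, and GGGCTTTTCC ended 69 bases before it. The 2 windows share the 14-base run GGGAATTTCCCTGG, which 2 of all windows hold. The Cxcl10 window held the interferon-response motif ISRE (2.98% of all windows), as GAAAGTGAAA, first base 213 before the start. It also held the AP-1 motif TGANTCA (6.75% of all windows) as TGAGTCA, first base 74 before the start. A wider NF-kB consensus, added after the sequences had been read and overlapping the NF-kB motif above, matched the Cxcl1, Cxcl2 and Cxcl10 windows and 3.9% of all. In the Pf4 window the C/EBP motif TTGCNNAA (9.56% of all windows) was the only one of these that matched, as TTGCTAAA. The ETS-IRF composite motif (2.3% of all windows) was in none of the 4.

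Promoter peaks of the 5 genes fell into a clear order. Pf4 and Cxcl2 had one in all 4 libraries, a state shared by 5.41% of the 21295 named genes. Cxcl10 had one in both CpG libraries and in control 2, Cxcl1 in CpG 2 alone and Cxcl16 in control 1 alone. Thus 3 of the 5 genes were promoter-bound in both CpG libraries (7.36% of named genes), and 2 of 5 in both control libraries (17.9% of named genes). By library the count was 3 of 5 in CpG 1 (10.3% of named genes) and 4 of 5 in CpG 2 (22.1%), against 3 of 5 in control 1 (23.9%) and 3 of 5 in control 2 (28.4%). None of the 5 had a promoter peak in each CpG library but in no control library, a pattern of 0.61% of named genes, or the opposite pattern, that of 4.3%. The genes were chosen with earlier results of these data known, so these counts are a description.

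**Figure D1:**
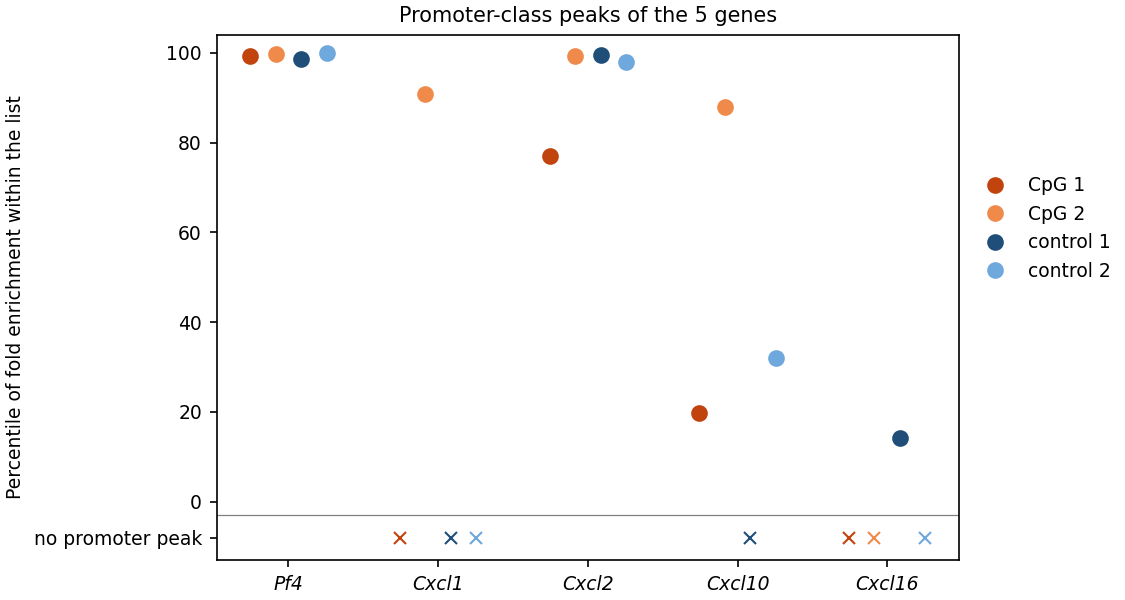
Percentile of fold enrichment, within its own list, of the promoter peak of each gene (y axis, percent) for CpG 1, CpG 2, control 1 and control 2, with crosses for no promoter peak. The Pf4 points sit at 98.7 or above in every library, while the Cxcl10 points spread between 19.8 and 88.0.

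The heights of peaks are given below as fold enrichment, the authors' ratio of the signal at the summit to local background, and as a percentile, the share of peaks of the same list with a fold no higher. Neither was compared between lists, which differ in length and background. Pf4 carried one of the tallest promoter peaks of each list. Its fold enrichment was 12.9 in CpG 1 and 37.7 in CpG 2, against 16.4 in control 1 and 64.6 in control 2. Peaks with a higher fold numbered 97 and 72 in the CpG libraries, against 380 and 22 in the control libraries. The peak therefore stood at percentiles 99.3 and 99.7 in the CpG libraries, against 98.7 and 99.9 in the control libraries, near the top of all 4 lists. The authors' lists of whole conditions gave the same picture, with percentile 99.0 in the CpG list and 99.9 in the control list.

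The summit at Pf4 lay 874 and 805 bases upstream of the gene's start in the CpG libraries, against 676 and 721 bases in the control libraries, farther out than the 250 bases printed above. The peak was 905 and 2204 bp long in the CpG libraries, against 1905 and 3061 bp in the control libraries. The longest of these ran over the whole 949 bp of the gene. A smaller peak about 2.05 kb downstream of the start was called in CpG 2, with a fold of 6.89, and in both control libraries, with folds of 6.03 and 9.93. CpG 1 had no peak there. The only other peak of Pf4 was in control 1, with a fold of 6.03 at 3.31 kb.

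Cxcl2 also carried a promoter peak in all 4 libraries, though its rank in CpG 1 was lower. The fold was 6.3 in CpG 1 and 28.8 in CpG 2, against 21.0 in control 1 and 22.6 in control 2. Percentiles were 77.0 and 99.2 in the CpG libraries, against 99.5 and 98.0 in the control libraries. The peak was thus among the tallest of every list but that of CpG 1, the shortest. Its summit lay 161 and 166 bases upstream of the start in the CpG libraries, against 412 and 169 bases in the control libraries. In 3 of the 4 libraries it was therefore at nearly the same base.

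The length of the promoter peak of Cxcl2 varied widely between libraries. It measured 1003 bp in CpG 1 and 6275 bp in CpG 2, against 2152 bp in control 1 and 1099 bp in control 2. In CpG 2 the peak ran unbroken over the gene, from chr5:91050480 to chr5:91056754. In the other libraries the same stretch was cut into several peaks. CpG 1 had one of 2023 bp with its summit 2.71 kb downstream of the start, at a fold of 14.2 and percentile 99.6, taller than its promoter peak. Control 1 had one of 2201 bp there at a fold of 13.5, and control 2 one of 376 bp at a fold of 5.07. Lengths of the promoter peak in the 2 conditions overlapped.

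**Figure D2:**
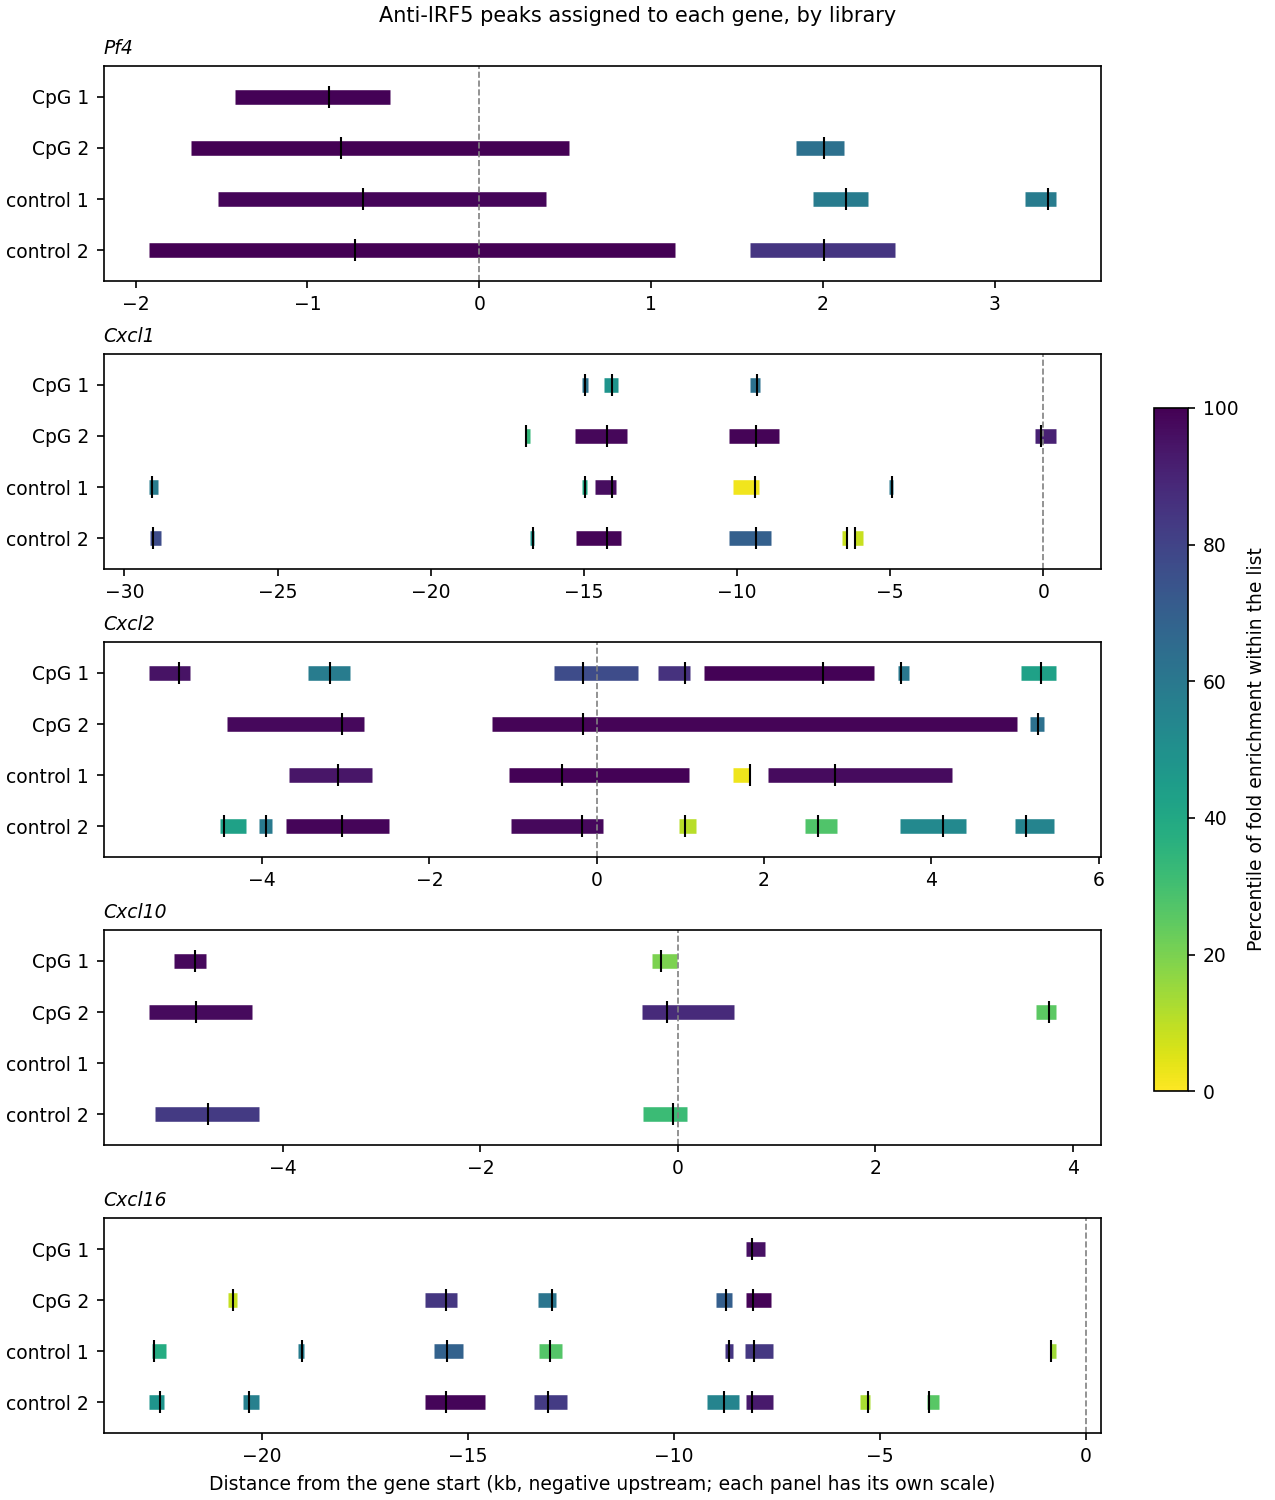
Peaks of the 5 genes in CpG 1, CpG 2, control 1 and control 2 (rows), drawn to scale by distance from the gene's start (x axis, kb, negative upstream, own scale per panel), with bars for peaks, ticks for summits and colour for the percentile of fold enrichment. Cxcl2 shows a peak of 6275 bp in CpG 2, and Cxcl10 shows none in control 1.

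Upstream of Cxcl2, a site about 3.09 kb before the start was called in all 4 libraries. Its folds were 5.34 in CpG 1 and 21.5 in CpG 2, against 11.2 in control 1 and 25.8 in control 2. Percentiles were 58.5 and 98.0 in the CpG libraries, against 94.5 and 98.6 in the control libraries. The summits lay within 147 bases of each other.

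The tallest peak of the Cxcl1-Cxcl2 interval was farther up, between the genes. It lay within chr5:91044637-91046964, in a place where the files give a 5S rRNA gene as the nearest, so that the rule assigned it to neither chemokine except for 1 peak of CpG 1. Its fold was 9.76 in CpG 1 and 50.7 in CpG 2, against 23.0 in control 1 and 51.7 in control 2. In CpG 2 only 21 peaks of the list had a higher fold. The number was 434 in CpG 1, against 108 in control 1 and 53 in control 2. Summits lay 6.37 and 6.28 kb before the start of Cxcl2 in the CpG libraries, against 5.12 and 6.18 kb in the control libraries. In CpG 1 the same stretch held 2 peaks, and the second, 5.0 kb before Cxcl2 with a fold of 9.03, is the one counted for that gene. Within each list this site stood higher by fold than the promoter peak of Cxcl2.

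**Figure D3:**
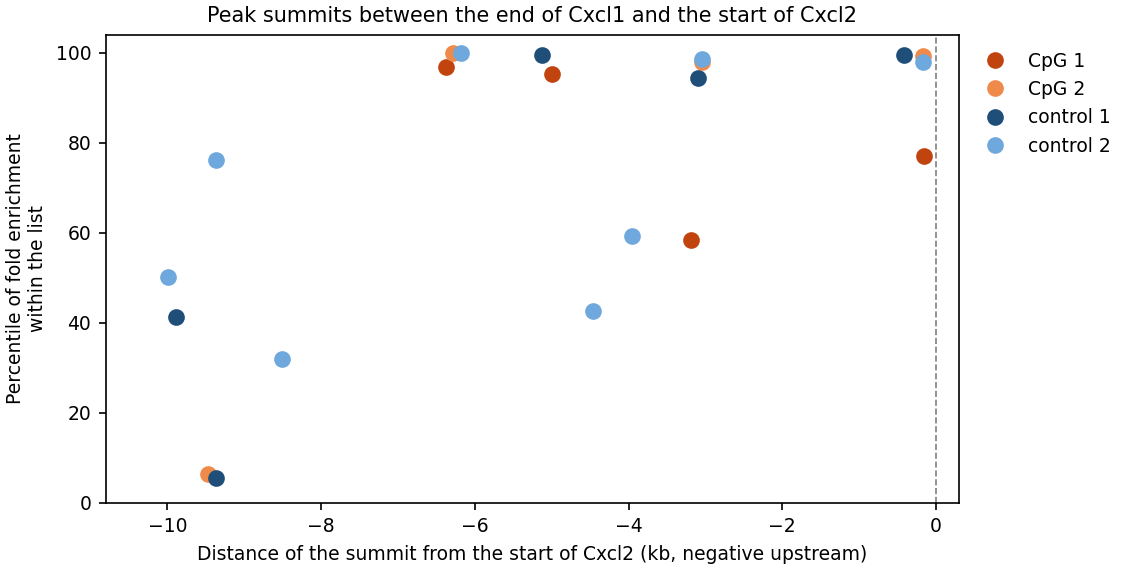
Percentile of fold enrichment within the list (y axis, percent) of each peak summit between the end of Cxcl1 and the start of Cxcl2, by distance from the start of Cxcl2 (x axis, kb, negative upstream), for CpG 1, CpG 2, control 1 and control 2. Points of all 4 libraries lie at 95.2 or above between 5.0 and 6.37 kb upstream.

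At Cxcl1 the peaks lay upstream of the gene rather than at its start. A promoter peak was called in CpG 2 alone, with a fold of 12.0 at percentile 90.8 and a summit 72 bases before the start. In the authors' list of the CpG condition a peak with its summit 62 bases inside the gene had a fold of 4.0 and was classed as exon and 5′ untranslated region, not as promoter. The control list had no peak there. A promoter peak at Cxcl1 was therefore seen in 1 of 2 CpG libraries and in 0 of 2 control libraries.

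Farther upstream of Cxcl1, sites about 14.2 kb and 9.39 kb before the start were called in all 4 libraries. At the 14.2 kb site the folds were 5.0 in CpG 1 and 22.9 in CpG 2, against 12.6 in control 1 and 27.6 in control 2. It stood at percentiles 48.1 and 98.4 in the CpG libraries, against 96.5 and 98.9 in the control libraries. It stood near the top of every list but that of CpG 1.

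The 9.39 kb site ranked otherwise. Its folds were 5.6 in CpG 1 and 26.2 in CpG 2, against 3.21 in control 1 and 7.51 in control 2. The percentiles were 62.8 and 98.9 in the CpG libraries, against 2.2 and 69.6 in the control libraries. In both CpG libraries its fold was higher than at the 14.2 kb site, and in both control libraries it was lower. The signal at the summit, given by the authors as a pileup, was higher here than at the 14.2 kb site in every library. It was 27 against 19 in CpG 1 and 92 against 65 in CpG 2. In the control libraries it was 43 against 33 and 84 against 74. In both control libraries a higher pileup thus went with a lower fold over local background. The order of the sites differed between conditions by fold and not by pileup, and in CpG 1 the folds were close, 5.6 and 5.0. Summits at this site lay within 71 bases of each other.

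A region 29.1 kb before Cxcl1 was called in both control libraries and not with CpG. It spans chr5:91009900-91010297, with folds of 6.03 in control 1 and 8.44 in control 2, at percentiles 58.5 and 77.0. It was not among the tall peaks of either list. The remaining sites of Cxcl1 were called in 1 or 2 libraries, and none of their folds exceeded 6.15 apart from the promoter peak in CpG 2.

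Cxcl10 was the only one of the 5 genes with no peak at all in one library, control 1. Its promoter peak had a fold of 4.03 in CpG 1 and 10.9 in CpG 2, against 5.29 in control 2. Percentiles were 19.8 and 88.0 in the CpG libraries, against 32.0 in control 2. The peaks of CpG 1 and control 2 thus stood in the lower part of their lists. The summit was 170 and 107 bases before the start in the CpG libraries, against 46 bases in control 2, within the 250 bases upstream of the start. The authors' list of each condition held the peak, with a fold of 6.5 at percentile 68.0 in the CpG list and of 3.49 at percentile 4.9 in the control list.

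A taller peak of Cxcl10 lay about 4.84 kb upstream, in an intron of Art3. Its fold was 10.4 in CpG 1 and 19.4 in CpG 2, against 9.56 in control 2, and again control 1 had no peak. Percentiles were 97.8 and 97.5 in the CpG libraries, against 83.0 in control 2. It exceeded the promoter peak in fold in each of the 3 lists. The third site, 3.76 kb downstream of the start, was called in CpG 2 alone with a fold of 4.87.

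The peaks of Cxcl16 lay away from its start. All its 21 peaks in 4 libraries were upstream, up to 22.6 kb out. A promoter peak was called in control 1 alone, with a fold of 4.28 at percentile 14.3 and its summit 844 bases before the start. The site nearest to being shared was 8.09 kb upstream and was called in all 4 libraries. Its folds were 9.29 in CpG 1 and 26.9 in CpG 2, against 8.19 in control 1 and 14.0 in control 2. Percentiles were 95.9 and 99.0 in the CpG libraries, against 83.7 and 93.3 in the control libraries. Summits lay within 54 bases of each other, and this was the only peak of Cxcl16 in CpG 1.

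Sites 15.5, 13.0 and 8.73 kb before Cxcl16 were called in CpG 2 and both control libraries and were missing from CpG 1. At the 15.5 kb site the fold was 9.7 in CpG 2, against 6.68 in control 1 and 26.9 in control 2, where it stood at percentile 98.8. At the other 2 sites the folds ran from 4.8 to 9.5. A region 22.5 kb upstream, at chr11:70373137-70373555, was called in both control libraries alone, with folds of 5.2 and 5.96. The other sites of the gene were each called in 1 library, with folds from 3.99 to 6.45.

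When peaks that overlapped by at least 1 bp were joined across libraries, the 5 genes had 28 regions. Of these 7 were called in all 4 libraries, or 25.0%, where 10.1% of all 55621 regions were. They were the Pf4 promoter, the 14.2 and 9.39 kb sites of Cxcl1, all 3 regions of Cxcl2 including the one between the genes, and the 8.09 kb site of Cxcl16. The longest region of Cxcl2, of 6743 bp, joined 5 and 2 peaks of the CpG libraries with 3 and 5 of the control libraries. Joining summits within 250 bp instead, chosen after the data were seen, gave 37 sites. Of these sites 6 were in all 4 libraries (16.2%), with 2 of 11 at Cxcl2. The share over all peaks was not counted for this joining. None of the 28 was called in each CpG library but in no control library (1.15% of all regions). The regions at 29.1 kb from Cxcl1 and 22.5 kb from Cxcl16 were the 2 called in both control libraries and not with CpG (8.7% of all regions). Of 6 regions called in 3 libraries, 4 were missing from CpG 1 and the 2 missing from control 1 were both of Cxcl10.

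The number of peaks per gene was lower on average in the CpG libraries for 4 of the 5 genes. Cxcl16 had 1 and 5 peaks in CpG 1 and CpG 2, against 7 and 8 in control 1 and control 2, and the groups did not overlap. It averaged 3.0 ± 2.83 peaks in CpG libraries and 7.5 ± 0.707 in control libraries (SD, n = 2 each), a difference of -4.5 with an exact two-sided permutation p of 0.333. The difference shrank to -1.5 among peaks with a −log10 p of at least 10 and to -0.5 in lists shortened to equal length. Cxcl1 had 3 and 4 peaks in the CpG libraries, against 5 and 6 in the control libraries, which did not overlap either. Its difference was -2.0, with an exact permutation p of 0.333, and came to -0.5 and 0.5 under the same alternatives. A p of 0.333 is the smallest p that the 6 assignments of 4 libraries allow, so no gene could pass 0.05, and the lists as wholes were shorter in the CpG libraries too. Divided by the number of named genes, the lists held 0.636 and 1.21 peaks per gene in the CpG libraries, against 1.37 and 1.75 in the control libraries. These values of the whole lists did not overlap either. The share of all named genes with such a separation was not counted, so that at Cxcl1 and Cxcl16 is a description only.

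For the other 3 genes the groups overlapped or met. Cxcl2 had 7 and 3 peaks in the CpG libraries, against 4 and 8 in the control libraries, and its 7 peaks in CpG 1 stood at percentile 99.9 among named genes. Pf4 had 1 and 2 peaks in the CpG libraries, against 3 and 2 in the control libraries. Cxcl10 had 2 and 3 peaks in the CpG libraries, against 0 and 2 in the control libraries, the only one of the 5 genes with a higher mean in CpG libraries (2.5 ± 0.707 against 1.0 ± 1.41; SD, n = 2 each). The exact two-sided permutation p was 0.667 for each of these 3 genes. Counting peaks does not rank libraries by coverage, since 1 long peak of CpG 2 at Cxcl2 spans several of the other lists.

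**Figure D4:**
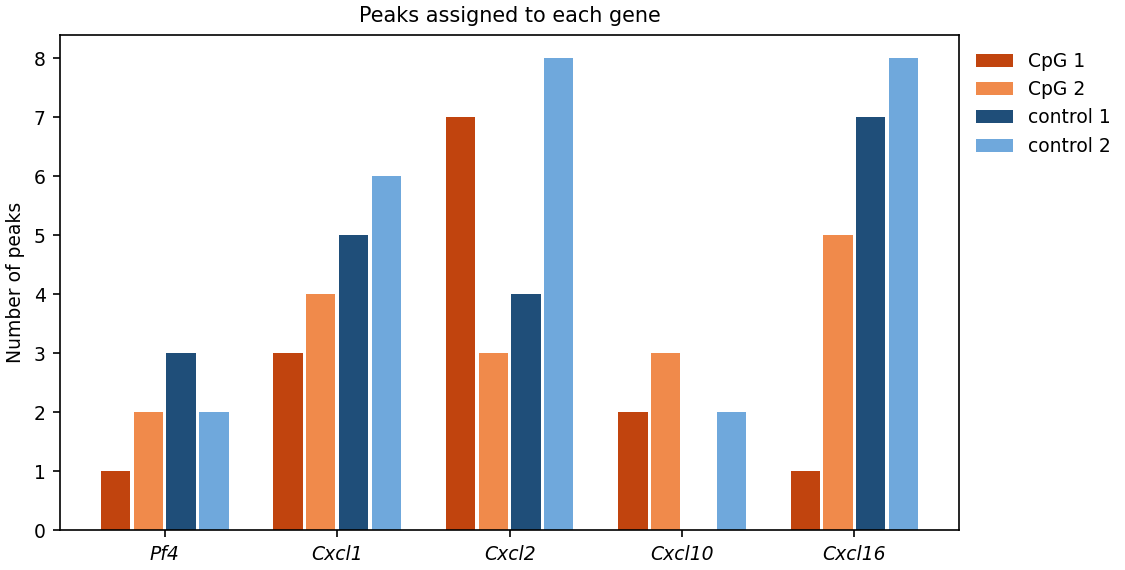
Number of peaks assigned to each gene (y axis) in CpG 1, CpG 2, control 1 and control 2, 1 bar per library. The CpG bars stand below the control bars for Cxcl1 and Cxcl16, at 1 and 5 peaks against 7 and 8 for Cxcl16.

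Bases covered by peaks within 10 kb of each start gave another view. All peaks in this window were counted, whichever gene they were assigned to. The windows of Cxcl1 and Cxcl2 overlap, and the site between these genes lies in both. At Cxcl16 the window held peaks of other genes in every library. In CpG 1 the gene's own peak made up 450 of its 610 covered bases. At Cxcl2 they came to 5302 and 10757 in the CpG libraries, against 8003 and 7939 in the control libraries, so both the lowest and the highest value were of CpG libraries. The difference of the means was 58.5 bases, with an exact permutation p of 1.0. At Cxcl16 610 and 2285 bases were covered in the CpG libraries, against 3465 and 4552 in the control libraries. The groups did not overlap (difference of means -2561.0 bases, exact permutation p of 0.333). The bases covered by the whole lists did not overlap either, at 3.33 and 11.5 Mb with CpG, against 12.4 and 19.1 Mb in control. The share of all named genes whose covered bases separate in this way was not counted, so that at Cxcl16 is a description only. At Cxcl10 the values were 585 and 2184 in the CpG libraries, against 0 and 1502 in the control libraries. At Pf4 they were 1049 and 3124 in the CpG libraries, against 2693 and 4948 in the control libraries, and at Cxcl1 1671 and 6363, against 4638 and 6494. The ranges of the conditions overlapped at these 3 genes, with exact permutation p of 0.667 each.

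**Figure D5:**
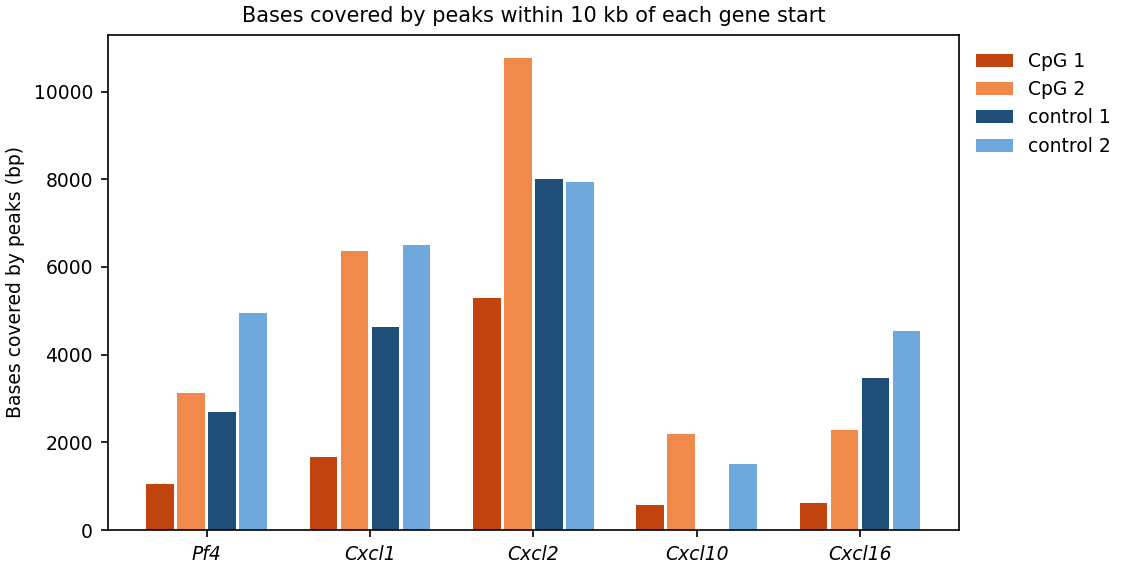
Bases covered by peaks within 10 kb either side of each gene's start (y axis, bp) in CpG 1, CpG 2, control 1 and control 2, 1 bar per library. Peaks assigned to other genes are included. Cxcl2 has the highest bar of the 5 genes in every library, from 5302 to 10757 bp.

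The wider CXC family was listed as 15 ligands and 8 receptors, of which 9 ligands and 5 receptors were named in the lists. Including the 5 genes above, 3 and 6 of the 23 had a promoter peak in CpG 1 and CpG 2, against 4 and 7 in control 1 and control 2. Without those 5 genes, the counts were 0 and 2 of the 9 other named genes in the CpG libraries, against 1 and 4 in the control libraries. Of all named genes 10.3% and 22.1% had a promoter peak in the CpG libraries, against 23.9% and 28.4% in the control libraries. Cxcl9, Cxcl12, Cxcl13, Cxcl14, Cxcl15, Cxcl17, Cxcr2, Ackr3 and Ackr1 were the nearest gene of no peak.

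Among the neutrophil-attracting ligands, Cxcl3 had a promoter peak in CpG 2 with a fold of 3.38, against 12.4 in control 2. Cxcl5 had 1 peak in all, at its promoter in control 2, with a fold of 5.07. Ppbp, the gene of another platelet chemokine, had a promoter peak in CpG 2 alone, with a fold of 4.43, and peaks within the gene in both control libraries. None of these was promoter-bound in both libraries of a condition. Cxcl11, an interferon-inducible ligand of Cxcr3, had no promoter peak, but intron peaks of Art3 upstream of it were called in every library. The tallest of them had a fold of 7.35 in CpG 1 and 16.9 in CpG 2, against 17.1 in control 1 and 18.2 in control 2.

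Of the receptors, Cxcr4, the receptor of Cxcl12, had a promoter peak in both control libraries, with folds of 4.28 and 9.09, and in neither CpG library. It was the one gene of the wider family with that pattern, which 4.3% of named genes had. Its tallest peak, 20.5 kb upstream in control 1, had a fold of 24.6. Cxcr5, the receptor of Cxcl13, had an intron peak about 9.5 kb inside the gene in every library, with folds of 5.58 in CpG 1 and 14.0 in CpG 2, against 9.05 in control 1 and 26.3 in control 2. Cxcr6, the receptor of Cxcl16, had 1 peak in CpG 2 with a fold of 3.77, against 1 in each control library with folds of 8.55 and 5.93, all in an intron of Fyco1. Cxcr1 had a promoter peak in control 2 alone, with a fold of 5.52, and Cxcr3 had 1 peak, in CpG 1, with a fold of 4.0.

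The genes most like Pf4 and Cxcl2 in the percentile of their promoter peak over the 4 libraries were sought among the 1152 named genes with a promoter peak in every library. For Pf4 they were Ccl12, Eapp and Ccl3, whose percentile differed from that of Pf4 by at most 1.13, 1.55 and 1.8 points in any library. Ccl12 and Ccl3 encode CC chemokines, a related class. Ccl12 had folds of 18.2 and 78.5 in the CpG libraries, against 28.2 and 90.6 in the control libraries, above those of Pf4 in each list. For Cxcl2 they were Clec4a1, Ccl2 and Gm46189, within 4.49, 4.81 and 4.93 points. Clec4a1 encodes a C-type lectin receptor of myeloid cells. Ccl2, a CC chemokine that attracts monocytes, had folds of 6.0 and 27.9 in the CpG libraries, against 21.1 and 45.6 in the control libraries.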

How the data were processed

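Anti-IRF5 CUT&Tag libraries of CpG and control macrophages, 2 per condition, were analysed from 6 peak lists with gene annotation, 1 for each library and 1 for each condition. The submitters' processing notes name MACS2 2.1.0, BWA 0.7.12, fastp 0.20.0 and ChIPseeker, with no genome build. The authors deposited the signal at each summit as a pileup. It was a whole number for 100% of peaks of the single libraries, against 0.0197% and 3.9% of the CpG and control lists, and no source used here says how those 2 lists were made. Fold enrichment is the ratio to local background that the authors' peak caller gave. The authors also deposited the −log10 of each p-value, of which the lowest per list was about 5.

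Continuation lines of long annotation cells were left out, 281 and 682 in CpG 1 and CpG 2, against 875 and 1017 in control 1 and control 2. Peaks on the 21 nuclear chromosomes were kept. Depth is unknown, and 2 libraries per condition limit the precision. Genes and their coordinates were taken from the lists, and promoter-bound means that the authors' Promoter class of the gene held a peak.

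Peaks were joined where they shared at least 1 bp. Counts of peaks and of covered bases were tested per gene over the 6 assignments of libraries to conditions (exact permutation test, two-sided), with Python 3.11.15 and NumPy 2.4.6, and the scripts were tested on simulated data. No test was run over the members. The 5 genes, the family list and the markers were chosen with earlier results of these data known. Named are the 5 genes, each family gene nearest to a peak, and the 3 genes most like each of the 5 with a promoter peak in all 4 libraries. Alternatives were another promoter definition, −log10 p of at least 10, lists of equal length, the authors' condition lists, another overlap, leaving out each library and the replicate number as a block.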

Additional observations from a re-analysis of the deposited data

How the results depend on the processing

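Of 94 values under the alternatives, 73 did not turn in direction or, for counts, stayed within 1.5 times. Among the 73 are the differences with the replicate number as a block, unchanged by construction. A difference that shrank, even to 0.0 as for Pf4 at a −log10 p of at least 10, also counted as not turned. When any nearest peak counted in place of the Promoter class, 5 of the 5 genes were bound in both CpG libraries (3 by promoter), against 4 in both control libraries (2 by promoter), and 4 in all 4 libraries. By that definition 24.6% of all named genes were bound in all 4 libraries. The family counts became 9 in both CpG libraries, against 11 in both control libraries, where the promoter class gave 3 in each. For both control libraries the family count was 5 with summits within 1 kb of the start and 5 in the authors' condition list. Leaving out each library in turn gave family counts of 3 to 6 for CpG, highest without CpG 1, and of 4 to 7 for control, highest without control 1. For the 5 genes it gave 3 to 4 for CpG, 3 for control and 2 to 3 for all libraries. Leaving out 1 library loosens what each of these counts requires, so they could only stay or rise.

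Regions called with CpG alone, 0 of 28, became 1, the Cxcl10 promoter, when each list was shortened to its 13553 strongest peaks. That kept peaks down to a −log10 p of 5.0 in CpG 1, against 14.5 in control 2. The Cxcl10 promoter peak of control 2, at 13.6, was thus dropped, while the weaker one of CpG 1, at 6.44, was kept. Regions called with CpG alone numbered 0 to 3 when 1 library was left out, with 3 without CpG 1 and 3 without control 2. Leaving out 1 library loosens this definition and that of regions called in control alone. Regions called in control alone, 2 of 28, became 0 at a −log10 p of at least 10 and 0 in lists of equal length. They numbered 2 to 7 when 1 library was left out, with 6 without CpG 2, 7 without control 1 and 6 without control 2. The causes were not tested.

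The difference in peaks per gene (CpG minus control) turned to 0.5 for Cxcl1 and 2.0 for Cxcl2 in lists of equal length, where it was -0.5 for Cxcl16, -0.5 for Pf4 and 1.5 for Cxcl10. At a −log10 p of at least 10 it was -1.5 for Cxcl16, -0.5 for Cxcl1, -1.0 for Cxcl2, 0.0 for Pf4 and 0.5 for Cxcl10. Leaving out each library gave -3.0 to 1.0 for Cxcl2, with 1.0 without CpG 2 and 1.0 without control 2. It gave -1.5 to -0.5 for Pf4, -2.5 to -1.5 for Cxcl1, 0.5 to 2.5 for Cxcl10 and -6.5 to -2.5 for Cxcl16. With the replicate number as a block the differences were unchanged by construction (-1.0 for Pf4, -2.0 for Cxcl1, -1.0 for Cxcl2, 1.5 for Cxcl10 and -4.5 for Cxcl16). The smallest exact p that this block allows is 0.5. Nothing in the labels says that a number marks a shared animal or day. Chosen after the data were seen, joining summits within 250 bp gave 37 sites, 6 of them in all 4 libraries, with 0 in CpG alone and 2 in control alone. Leaving out both libraries numbered 1, chosen likewise, gave 0.0 for Pf4, -2.0 for Cxcl1, -5.0 for Cxcl2, 1.0 for Cxcl10 and -3.0 for Cxcl16. By mean difference, 2 of the 3 genes most like Pf4 and all 3 of those most like Cxcl2 stayed the same.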
